A study of Homo sapiens with 10 samples.

Results

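The genes described here are those of DNA replication and S phase: 49 genes listed by symbol, from origin licensing to nucleotide supply, in RNA sequencing of IMR90 cells. IMR90 is an established human fetal lung fibroblast line. Of the 49, 48 were matched to a row of the deposited count table of 57736 genes, and UHRF1 was not matched. All 48 matched genes were among the 16760 genes that passed the filter on low counts. The genes were listed by name for their role.

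The samples form 5 groups of 2. Control cells had been infected with a vector retrovirus and transfected with control siRNA. Senescent control cells had received a retrovirus that expresses RAS, an oncogene that drives fibroblasts into stable arrest, and control siRNA. The 3 other groups had also received RAS: senescent cells with METTL3 knockout, and METTL3 knockout cells that had then received METTL3 back as a knock-in, wild type or mutant. The word knockout is that of the sample titles. The protocol describes siRNA from day 4 after the retrovirus, a second transfection with lentivirus infection on the next day, and harvest 48 hours later. The protocol text names METTL14 and a mutant of METTL14, while the titles and the column names give METTL3, and the mutation in METTL3 is not named there. The word vec stands in the column names of the knockout samples but not of senescent control, so the groups may also differ in whether they received a lentivirus. Whether the 2 samples of a group came from separate cultures is not stated in the labels. The p-values therefore reflect the spread of these samples alone, and that spread may be technical.

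Before a cell copies its DNA, the origin recognition complex, CDC6 and CDT1 load the MCM helicase at origins, and geminin prevents loading a second time. In S phase the helicase is joined by CDC45 and the GINS complex, primase and polymerase alpha start each strand, and polymerases delta and epsilon extend it on the PCNA clamp. Many of these genes are transcribed under E2F factors, which RB holds in check in arrested cells, and low replication gene expression is a known feature of senescent fibroblasts. METTL3 is the enzyme that, in a complex with METTL14, places the m6A methyl mark on RNA.

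The samples held between 16293975 and 23570266 counts. METTL3 was lower in the knockout, with a mean of 26.1 CPM (counts scaled to a common library total), than in senescent control, with 52.3 CPM (edgeR adjusted p = 0.00087), and it took 5.86% to 14.2% of all counts in the 4 knock-in samples and at most 0.00791% elsewhere. METTL14, the gene of the protocol text, differed by 0.19 between knockout and senescent control (SE 0.14, adjusted p = 0.41). HRAS, the RAS family gene checked, rose by 2.06 from control to senescent control (SE 0.11, adjusted p = 4.3e-08). All 10 fibroblast markers examined had counts in every group, with a summed level of 14560 to 18180 CPM in control, 10400 to 11100 in senescent control, 10560 to 11210 in the knockout, 8361 to 8925 in the wild type knock-in and 5679 to 6456 in the mutant knock-in. Epithelial markers, 5 genes of which KRT5 was at 0 in every sample, summed to 20.2 to 21.7 CPM in control, 3.18 to 4.66 in senescent control, 10.9 to 11 in the knockout, 3.17 to 4.66 in the wild type and 2.72 to 2.86 in the mutant knock-in. They thus moved with the replication genes from control to the knockout, and their part in those results was not tested. The 4 endothelial markers matched summed to 20.4 to 22.3 CPM in control and 18.5 to 20.2 CPM in senescent control. In the knockout they summed to 26.7 to 29.3 CPM, above senescent control, and their part was not tested. Their sums were 22.7 to 23 CPM in the wild type and 25.5 to 27 CPM in the mutant knock-in. Leukocyte markers, 5 genes with CD3E at 0 in every sample, summed to 0.963 to 1.25 CPM in control, 2.35 to 5.25 CPM in senescent control, knockout and wild type knock-in, and 6.38 to 9.18 CPM in the mutant knock-in, and their part was not tested. The replicates of control differed more than those of other groups, with a chi-square of 34.1 per gene, while the other groups had 5.08 to 7.56.

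Replication gene RNA was far lower in senescent control than in control. Summed over the 48 genes, the level was 1924 and 1841 CPM in the 2 control samples and 562 and 569 CPM in the 2 senescent control samples. By edgeR's quasi-likelihood test with Benjamini-Hochberg adjustment over all genes (called at an adjusted p under 0.05), 45 of the 48 genes fell and 0 rose, where 25.3% of all tested genes fell and 19.7% rose. The median log2 change of the 48 genes was -1.94, against -0.03 over all genes. Of the 48, 43 were called with a fall of at least 1, beside 1187 of all 16760 tested genes. In 47 of the 48 genes both senescent samples lay below both control samples, with BRCA1 the exception, while the groups did not overlap in 71.6% of all tested genes. The same 45 calls were kept under each of 11 alternatives, including the 4 that leave out a sample. In these bulk samples, fewer cells in S phase and less RNA per cell cannot be told apart.

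**Figure D1:**
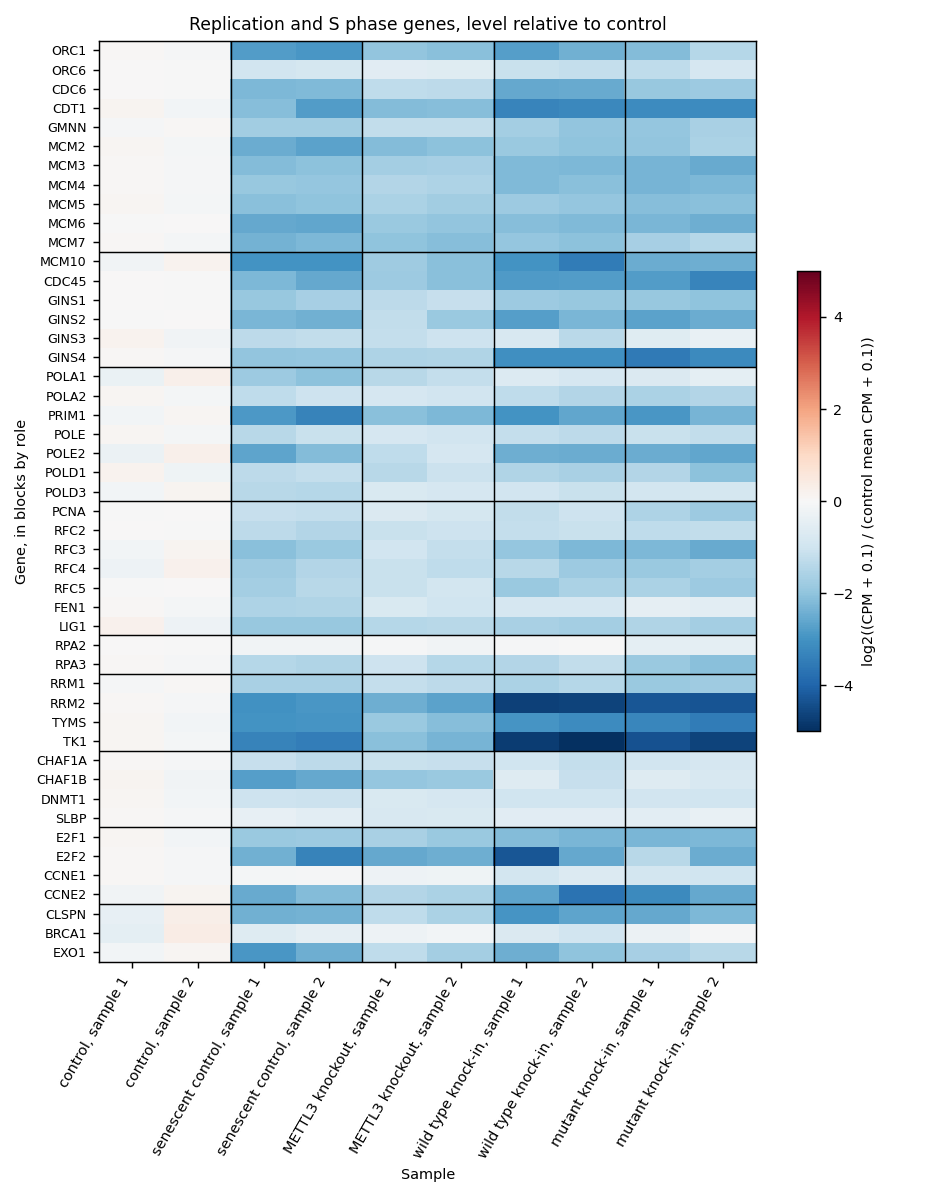
Level of each of the 48 matched genes (rows, in blocks by role) in each of the 10 samples (columns), as log2 of the CPM plus a pseudocount of 0.1 relative to the control mean. Blue fields, lower than control, fill the 8 columns of senescent groups for most rows; CCNE1 and RPA2, with senescent control means of 94.2% and 88.3% of control, are the palest rows of senescent control.

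All 11 origin licensing genes fell in senescence, with a median log2 change of -2.23. ORC1, the largest subunit of the origin recognition complex, stood at 11.5 and 10.4 CPM in control and at 1.48 and 1.37 CPM in senescent control. Its 2 senescent samples were both far below control, a change of -2.94 (SE 0.23, adjusted p = 1.1e-06). ORC6, another subunit of the complex, changed least in this group of genes: 24.6 and 23.9 CPM in control became 12.4 and 13.1 CPM, a change of -0.93 (SE 0.13, adjusted p = 0.00011). The helicase subunit MCM6 stood at 49.7 and 49.8 CPM in control and at 8.34 and 8.04 CPM in senescent control. The groups were apart and the replicates close, and the change was -2.60 (SE 0.11, adjusted p = 4.9e-09).

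All 6 helicase activation genes fell as well, with a median of -2.18. MCM10, which helps to switch the loaded helicase on, went from 16.7 and 21.2 CPM to 2.30 and 2.33 CPM. Both senescent samples were below both controls, with a change of -3.03 (SE 0.19, adjusted p = 1.5e-07). GINS3, a subunit of the GINS complex, changed least, from 8.45 and 6.67 CPM to 3.02 and 3.15 CPM. The groups did not overlap, and the change was -1.29 (SE 0.21, adjusted p = 0.00032).

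The 7 polymerase and primase genes fell with a median of -1.41. PRIM1, the catalytic primase subunit, changed most: 6.39 and 7.57 CPM in control became 0.877 and 0.594 CPM in senescent control. Both senescent samples were far below control, by -3.25 (SE 0.27, adjusted p = 1.7e-06). POLA2, the accessory subunit of polymerase alpha, changed least, from 24.3 and 21.3 CPM to 9.43 and 11.1 CPM. Its change was -1.14 (SE 0.13, adjusted p = 2e-05), again without overlap.

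The clamp PCNA, the 4 measured subunits of its loader, the flap nuclease FEN1 and the ligase LIG1 all fell. RFC3, a loader subunit, fell most, from 19.8 and 24.3 CPM to 5.15 and 6.03 CPM, a change of -1.97 (SE 0.16, adjusted p = 1.5e-06). PCNA fell least of the 7 genes, from 96.2 and 96.8 CPM to 42.9 and 41.6 CPM, a change of -1.19 (SE 0.11, adjusted p = 2.7e-06). For both genes the 2 groups were apart. The subunits of the single-strand binding protein RPA differed from one another. RPA3 went from 12.8 and 11.7 CPM to 4.44 and 4.20 CPM, a fall of -1.50 (SE 0.16, adjusted p = 1.6e-05). RPA2 stood at 20.5 and 19.5 CPM in control and at 17.8 and 17.6 CPM in senescent control. The senescent samples were slightly lower without overlap, but the change of -0.18 (SE 0.10, adjusted p = 0.15) missed the threshold, with a 95% interval of -0.39 to 0.03.

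All 4 nucleotide supply genes fell, and their median of -2.98 was the lowest among the 9 role groups. TK1, the thymidine kinase that returns thymidine to the nucleotide pool, stood at 35.8 and 31.9 CPM in control and at 3.29 and 2.97 CPM in senescent control. This fall of -3.44 (SE 0.15, adjusted p = 6.7e-09), a level 10.8-fold lower, was the largest among the 48 genes. RRM2, the regulated subunit of ribonucleotide reductase, went from 207 and 189 CPM to 23.9 and 25.9 CPM, a fall of -2.99 (SE 0.11, adjusted p = 1.4e-09). Its partner subunit RRM1 changed least of the 4, from 159 and 169 CPM to 53.1 and 52.6 CPM, a fall of -1.63 (SE 0.09, adjusted p = 4e-08).

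The 4 matched genes of chromatin copying and histone supply fell. CHAF1B, a subunit of the CAF-1 histone chaperone, went from 17.6 and 14.2 CPM to 2.25 and 2.65 CPM, a fall of -2.69 (SE 0.20, adjusted p = 5.6e-07). SLBP, which binds the stem-loop of histone mRNAs, changed least, from 53.0 and 49.9 CPM to 38.7 and 35.8 CPM, a fall of -0.47 (SE 0.09, adjusted p = 0.0013). Both genes were separated between the groups.

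Of the E2F and cyclin E genes, 3 of 4 fell. E2F2 was read at few counts: 44 and 40 in control and 5 and 2 in senescent control, with 0 counts in the first wild type knock-in sample, where a count of 0 allows up to 0.183 CPM (3 counts, counting error only). Its level was 1.93 and 1.79 CPM in control and 0.274 and 0.0913 CPM in senescent control, a change of -3.36 (SE 0.62, adjusted p = 0.00091). CCNE1, the cyclin that drives entry into S phase with CDK2, stood at 10.1 and 9.54 CPM in control and at 9.16 and 9.36 CPM in senescent control. The samples nearly met, and the change was -0.09 (SE 0.13, adjusted p = 0.61), with a 95% interval of -0.36 to 0.19. Its relative CCNE2 fell by -2.40 (SE 0.27, adjusted p = 2.3e-05), from 7.49 and 9.32 CPM to 1.37 and 1.78 CPM. INTS8, on the opposite strand, covers 37% of the exon bases of CCNE2 in the annotation used here (GENCODE 29), and without a known strand setting its reads cannot be told apart from those of CCNE2.

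Among the 3 genes of fork checkpoint and repair, EXO1 and CLSPN fell. EXO1, an exonuclease, went from 17.0 and 19.9 CPM to 2.36 and 3.33 CPM, a change of -2.68 (SE 0.21, adjusted p = 8.7e-07). BRCA1, a repair protein that protects stalled forks, was uneven in control, at 11.7 and 21.1 CPM, and stood at 10.6 and 11.96 CPM in senescent control. One senescent sample lay between the controls, and the change of -0.54 (SE 0.23, adjusted p = 0.079) did not pass the test.

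The promoters of these genes were examined because the genes fell together. Of the 48 genes, 41 had an entry in the RefSeq promoter table (GRCh38.p14), which gives 250 bases before to 50 bases after each annotated start. Only 1 window was searched for each of the 41 genes, so any other start listed for a gene was not covered. It was the last full-length window listed for the gene, which need not be its main start. The counts of genes with and without a motif depend on that choice. The shares of all windows count every window of the table. E2F-type letters, searched as TTTCCCGC, TTTCGCGC, TTTGCCGC and TTTGGCGC on both strands, were present in 20 of the 41 windows (48.8%), against 3.31% of all 35116 windows of the table. CCAAT on either strand was present in 23 of 41 windows (56.1%), against 34.6% of all windows. The letters TTTGAA or TTCGAA, searched for the cell cycle homology region, were present in 2 of 41 (4.88%), against 16.4%. The members' windows were also richer in G and C, with a median of 65.7% against 58.7%, and no allowance was made for this. The TTTCGCGC and TTTGGCGC searches can overlap in 1 run, as they do in MCM6.

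The 6 stretches below are the 160 bases before the annotated start, 5′ to 3′ on the strand of the gene, with E2F-type letters in capitals. MCM6 is shown for its pair of runs, E2F1 and TYMS for matches close to the start, and POLA1 for a match farther upstream in a gene that was high in both knock-ins. TK1, with the largest fall, and CHAF1B, the gene that rose most in the knock-ins, are shown for windows that held none of the searched E2F-type letters. The stretches lie at chr2:135876444-135876603 on the minus strand (MCM6), chr20:33686386-33686545 on the minus strand (E2F1), chr18:657493-657652 on the plus strand (TYMS), chrX:24693758-24693917 on the plus strand (POLA1), chr17:78187053-78187212 on the minus strand (TK1) and chr21:36385232-36385391 on the plus strand (CHAF1B).
MCM6: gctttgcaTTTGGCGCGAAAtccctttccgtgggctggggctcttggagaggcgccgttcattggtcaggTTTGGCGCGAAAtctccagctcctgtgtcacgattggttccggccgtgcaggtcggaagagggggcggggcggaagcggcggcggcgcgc
E2F1: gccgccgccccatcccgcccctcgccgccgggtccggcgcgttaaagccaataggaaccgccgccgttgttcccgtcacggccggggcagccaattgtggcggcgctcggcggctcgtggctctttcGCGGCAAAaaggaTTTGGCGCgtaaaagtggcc
TYMS: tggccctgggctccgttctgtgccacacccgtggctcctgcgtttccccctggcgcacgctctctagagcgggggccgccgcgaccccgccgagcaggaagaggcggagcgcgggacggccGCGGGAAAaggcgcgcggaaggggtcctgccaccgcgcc
POLA1: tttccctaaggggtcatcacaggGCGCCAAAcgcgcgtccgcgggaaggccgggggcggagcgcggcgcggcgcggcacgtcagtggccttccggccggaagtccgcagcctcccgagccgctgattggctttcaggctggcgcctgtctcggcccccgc
TK1: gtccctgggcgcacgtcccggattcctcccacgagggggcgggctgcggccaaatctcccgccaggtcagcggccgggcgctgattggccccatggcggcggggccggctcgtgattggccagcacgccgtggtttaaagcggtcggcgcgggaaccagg
CHAF1B: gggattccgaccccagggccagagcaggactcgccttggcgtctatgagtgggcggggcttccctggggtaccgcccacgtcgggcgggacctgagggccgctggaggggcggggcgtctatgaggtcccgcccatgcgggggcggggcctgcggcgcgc
A match is a description of letters and not a bound site.

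**Figure D2:**
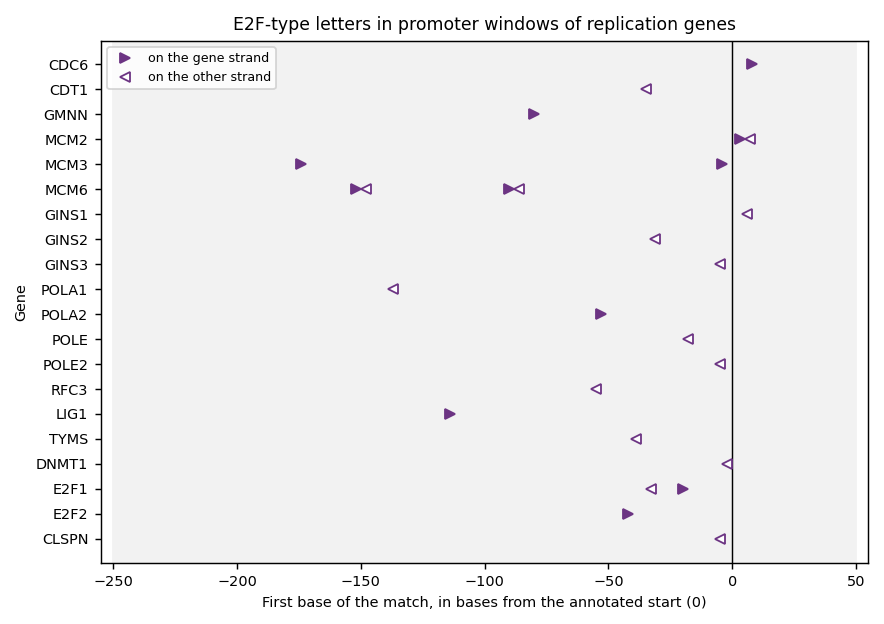
Position of each E2F-type match in the promoter windows of the 20 genes that held one, in bases from the annotated start, with filled triangles for the gene's own strand and open triangles for the other. Of the 26 matches, 17 lie wholly upstream of the start, and 14 begin within 60 bases before it.

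The 20 genes with these letters had a median change of -2.04 from control to senescent control, and the 21 genes without them -1.63. The ranges overlapped widely, from -3.36 to -1.05 and from -3.44 to -0.09. In the knockout against senescent control the medians were 0.51 and 0.42. The largest fall, that of TK1, and the largest knock-in rise, that of CHAF1B, were in genes whose whole windows held none of the searched letters.

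In the METTL3 knockout, part of the replication genes stood above senescent control. The summed level of the 48 genes was 763 and 716 CPM, above the 562 and 569 CPM of senescent control and far below control. Of the 48 genes, 23 rose and 1 fell, where 7.17% of all tested genes rose and 8.62% fell. The median change was 0.46, against 0.01 over all genes, and 46 of 48 changes were positive. Both knockout samples were apart from both senescent samples in 44 of the 48 genes, against 64.6% of all tested genes. The number that rose was 34 when only the 2 compared groups were fitted, 26 with upper-quartile scaling and 26 with no filter. It was 22 with the replicate block, 18 with DESeq2 and 23 without the METTL3 row or with a minimum count of 30. Fewer rose when any 1 of the 4 compared samples was left out, among the 48 and among all genes. Such a fit leaves 1 sample in a group, so a call lost here or below does not show that a given sample carried it. CDC6, MCM6, FEN1, TYMS and TK1 kept the call under each of the 11 alternatives.

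**Figure D3:**
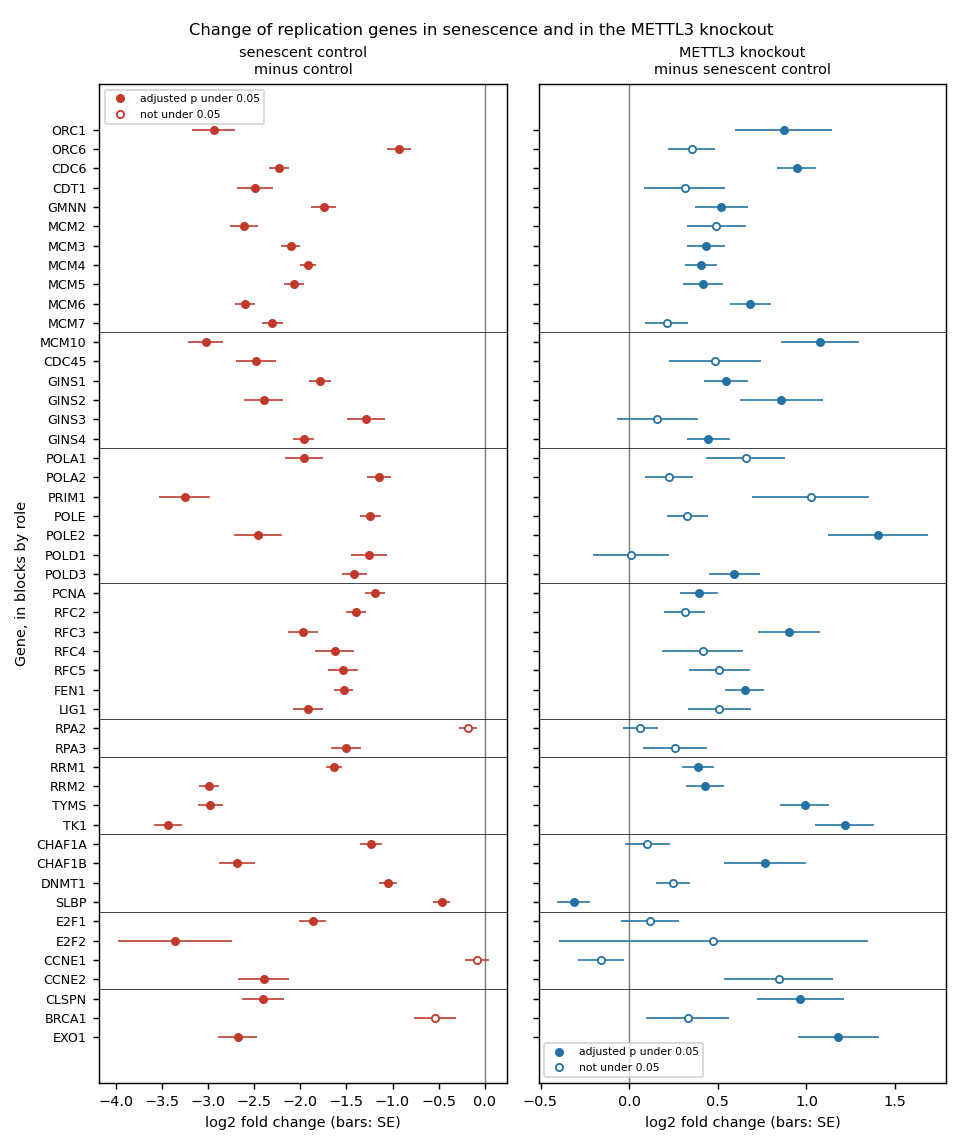
Log2 fold change of each gene with its standard error (SE), for senescent control minus control (left) and METTL3 knockout minus senescent control (right), with filled points at an adjusted p under 0.05. The left panel lies below 0 throughout, with a median of -1.94, and most of the right panel lies above 0, with a median of 0.46. Both panels use the senescent control samples.

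Licensing, helicase activation and nucleotide genes made up most of the rises. CDC6, the licensing factor that joins the origin complex to the helicase, stood at 7.62 and 7.94 CPM in senescent control and at 15.1 and 14.9 CPM in the knockout. Both knockout samples were clearly above, by 0.94 (SE 0.11, adjusted p = 0.00011). In all, 7 of 11 licensing genes rose, MCM6 among them, from 8.34 and 8.04 CPM to 13.7 and 12.6 CPM (change 0.68, SE 0.12, adjusted p = 0.0015). CDT1 was not among them: its knockout samples, at 3.29 and 3.39 CPM, overlapped the 3.35 and 2.10 CPM of senescent control.

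Of the 6 helicase activation genes, 4 rose, with the largest change in MCM10, from 2.30 and 2.33 CPM to 5.43 and 4.38 CPM (1.08, SE 0.22, adjusted p = 0.0051). All 4 nucleotide genes rose. TK1 went from 3.29 and 2.97 CPM to 7.91 and 6.62 CPM, a change of 1.22 (SE 0.17, adjusted p = 0.00038). TYMS, thymidylate synthase, went from 10.03 and 10.2 CPM to 22.2 and 18.1 CPM, a change of 0.99 (SE 0.14, adjusted p = 0.00042). For each of these genes both knockout samples lay above both senescent samples. ENOSF1, on the opposite strand, covers 39.1% of the exon bases of TYMS, and its counts went the other way, from 865 to 605 over the 2 samples of each group.

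Fewer genes of the other roles rose: POLE2 and POLD3 of the 7 polymerase genes, PCNA, RFC3 and FEN1 of the 7 clamp genes, CHAF1B of the 4 chromatin genes, CLSPN and EXO1 of the 3 checkpoint genes, and none of the single-strand binding or E2F and cyclin E genes. POLE2, a subunit of polymerase epsilon, had the largest change of all 48, from 1.10 and 1.55 CPM to 3.002 and 4.07 CPM (1.40, SE 0.28, adjusted p = 0.0049). RFC3 rose by 0.90 (SE 0.17, adjusted p = 0.0035), to 11.3 and 9.70 CPM. EXO1 rose by 1.18 (SE 0.23, adjusted p = 0.0038), to 7.50 and 5.58 CPM. The 4 knockout and senescent samples of each gene separated by group. The calls of POLE2, RFC3, EXO1 and MCM10 were not kept in every fit that left out 1 sample, and such a fit has less power. CCNE2, at 3.002 and 2.71 CPM, did not pass the test (0.84, SE 0.31, adjusted p = 0.086).

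SLBP was the 1 gene that fell, from 38.7 and 35.8 CPM to 29.6 and 30.4 CPM. Both knockout samples were lower, by -0.31 (SE 0.09, adjusted p = 0.039), but the call was lost in 8 of 11 alternatives, with adjusted p up to 0.28, including those without senescent control sample 1, senescent control sample 2, knockout sample 1 or knockout sample 2. CCNE1 stood at 8.25 and 8.34 CPM, with a change of -0.16 (SE 0.13, adjusted p = 0.49). HRAS moved with this comparison, from a mean of 61.2 CPM in senescent control to 40.2 CPM in the knockout (-0.61, SE 0.11, adjusted p = 0.0021), and its part in the result was not tested. MKI67, a marker of cycling cells, went from a mean of 35.6 to 93.5 CPM (1.39, adjusted p = 0.0010), and the arrest gene CDKN1A from 930 to 733 CPM (-0.34, adjusted p = 0.033). MKI67, CDKN1A, HRAS and METTL3 belong to a list of 8 control genes, of which 4 rose and 4 fell in this comparison.

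The rises left the knockout far below control. Against control, 45 of the 48 genes were lower and 0 higher in the knockout, where 26.7% of all tested genes were lower and 19.7% higher, and the median change was -1.29. The median level of the 48 genes was 26.1% of control in senescent control and 40.7% in the knockout. At the ends of the range in the knockout were E2F2, at 13.2% of control, and RPA2, at 92.3%. CDC6, which rose most among licensing genes, reached 15.1 and 14.9 CPM against 37.4 and 35.8 CPM in control. The comparisons with control and with senescent control share the knockout samples.

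With wild type METTL3 returned to the knockout, the summed level of the 48 genes was 562 and 560 CPM, beside 562 and 569 CPM in senescent control. Against the knockout, 26 of the 48 genes were lower and 1 higher, where 14.8% of all tested genes were lower and 18.5% higher. The median change was -0.55, against 0.02 over all genes. The 2 groups did not overlap in 42 of the 48 genes, against 70.8% of all tested genes. Without wild type knock-in sample 1, 17 genes were lower, and 16 of the 27 calls were kept under each of the 11 alternatives. These knock-in comparisons share the knockout samples with the comparison above, so the directions of both are linked.

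The largest changes were those of TK1 and RRM2, both nucleotide supply genes. TK1 stood at 7.91 and 6.62 CPM in the knockout and at 1.16 and 0.933 CPM in the wild type knock-in, a change of -2.80 (SE 0.20, adjusted p = 1.9e-06). RRM2 went from 36.6 and 30.5 CPM to 7.69 and 7.83 CPM, a change of -2.11 (SE 0.12, adjusted p = 3.1e-07). Both genes were lower in both knock-in samples, and both ended below their senescent control level. The other nucleotide genes changed less: TYMS by -1.08 (SE 0.14, adjusted p = 0.00012), and RRM1 by -0.26 (SE 0.09, adjusted p = 0.040). The RRM1 call was lost with no filter and with DESeq2, where all samples were kept. It was also lost without knockout sample 1, knockout sample 2 or wild type sample 1. CCNE2 fell by -1.68 (SE 0.34, adjusted p = 0.0026) and POLE2 by -1.48 (SE 0.29, adjusted p = 0.0020). GINS4, a subunit of the GINS complex, went from 13.9 and 14.2 CPM to 4.70 and 4.76 CPM, a change of -1.57 (SE 0.13, adjusted p = 5.6e-06). CDC6 fell to 6.10 and 6.25 CPM (-1.28, SE 0.11, adjusted p = 7.8e-06) and MCM10 to 2.32 and 1.58 CPM (-1.35, SE 0.23, adjusted p = 0.00076). All of these were without overlap, and the calls other than that of RRM1 were kept under each of the 11 alternatives. EXO1, called lower at -0.72 (SE 0.22, adjusted p = 0.025), lost its call without knockout sample 1 or wild type sample 1 (adjusted p up to 0.21).

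CHAF1B was the 1 gene of 48 called higher in the wild type knock-in than in the knockout, while 8 others had positive changes that missed the threshold. Its level was 4.10 and 4.28 CPM in the knockout and 10.1 and 6.99 CPM in the wild type knock-in, a change of 1.01 (SE 0.20, adjusted p = 0.0020). Both knock-in samples were above, though unequal. MORC3, a gene on the same strand, shares 89 bases (1.74%) of the CHAF1B exons in GENCODE 29. Its counts over the 2 samples of a group were 3232 in senescent control, 2688 in the knockout, 3991 in the wild type and 4186 in the mutant knock-in, and the part of its reads in the CHAF1B count was not tested. FEN1, at 21.0 and 20.7 CPM beside 21.8 and 18.9 CPM in the knockout, overlapped with it (change 0.03, SE 0.11, adjusted p = 0.84).

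**Figure D4:**
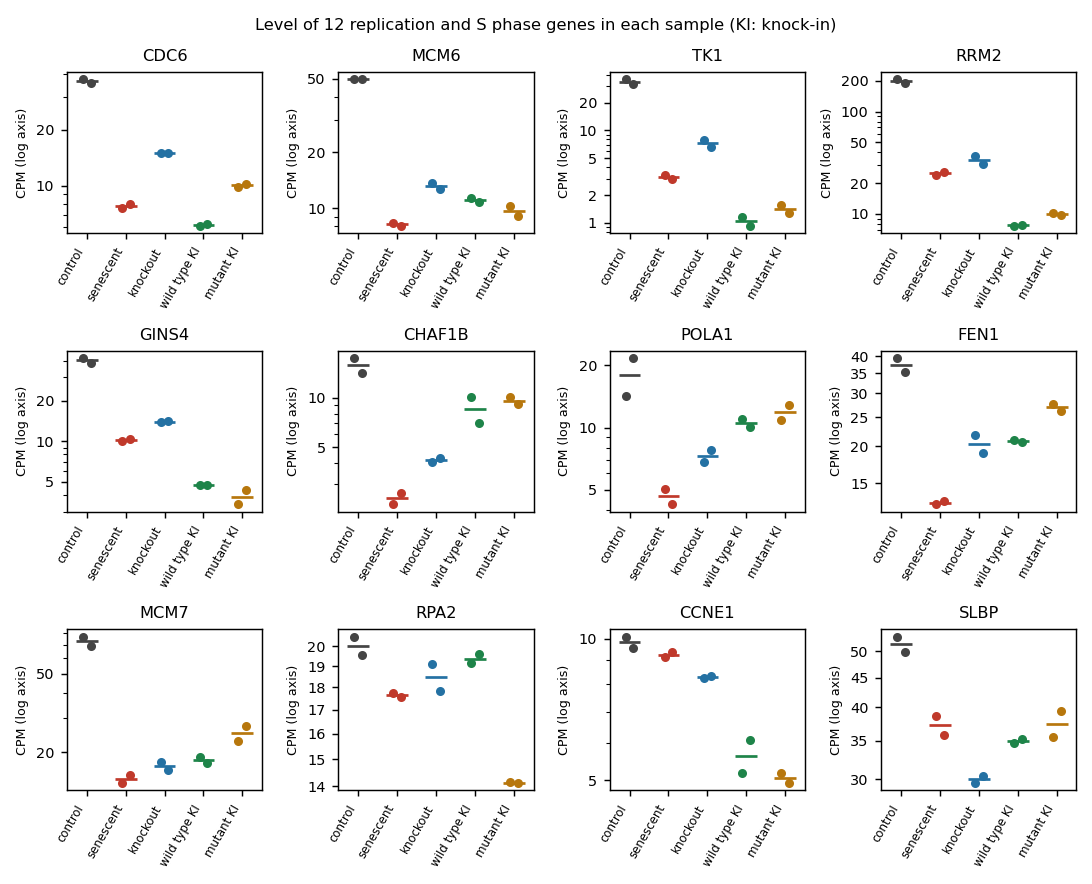
CPM (log axis, a separate scale for each gene) of 12 replication genes in each sample, with points for the 2 samples of a group and a line at their mean. TK1, RRM2, GINS4 and CCNE1 are lowest in the 2 knock-ins (KI), where CHAF1B and POLA1 stand above senescent control and knockout; CDC6 and MCM6 are nearest to control in the knockout, and RPA2 is lowest in the mutant knock-in.

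The mutant knock-in had nearly the same summed level, 554 and 563 CPM. Against the knockout, 27 of the 48 genes were lower and 6 higher, where 24.3% of all tested genes were lower and 24.1% higher, with a median of -0.54. In 44 of the 48 genes the groups did not overlap, against 79.1% of all tested genes. The genes called lower in both knock-ins, which are compared with the same knockout samples, numbered 23 of 48, against 12.6% of all tested genes. Of the 33 mutant calls, 21 were kept under each of the 11 alternatives. By its group means, HRAS was lower in the mutant knock-in than in the knockout, and higher in the wild type knock-in. Its part in either comparison was not tested. The 6 higher genes were MCM7, GINS3, POLA1, FEN1, CHAF1B and SLBP, and the number of higher genes was 3, 2 and 3 without knockout sample 1, knockout sample 2 and mutant sample 2.

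The genes that were higher in the mutant knock-in than in the knockout belong to several roles. MCM7, a helicase subunit, stood at 17.8 and 16.4 CPM in the knockout and at 23.0 and 27.2 CPM in the mutant knock-in (0.55, SE 0.12, adjusted p = 0.0021). CHAF1B reached 10.1 and 9.18 CPM (1.2, SE 0.20, adjusted p = 0.00037). Neither gene overlapped between the groups, and AP4M1, on the opposite strand over 8.94% of the MCM7 exon bases, had fewer counts in the mutant knock-in (175) than in the knockout (266). POLA1, the catalytic subunit of polymerase alpha, went from 6.81 and 7.77 CPM to 10.9 and 12.9 CPM (0.70, SE 0.20, adjusted p = 0.014). GINS3 went to 4.89 and 5.76 CPM (0.62, SE 0.22, adjusted p = 0.032), FEN1 to 27.6 and 26.3 CPM (0.41, SE 0.11, adjusted p = 0.0076) and SLBP to 35.5 and 39.3 CPM (0.32, SE 0.09, adjusted p = 0.014). These last 4 calls were lost when single samples were left out. For POLA1 and SLBP these were knockout sample 1, knockout sample 2 or mutant sample 2. For GINS3 it was any of the 4 samples, and for FEN1 knockout sample 2 or mutant sample 1. With all samples kept, the GINS3 call was also lost with DESeq2, and the SLBP call with no filter.

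Genes that were lower in the mutant knock-in included TK1, at 1.55 and 1.27 CPM (-2.35, SE 0.20, adjusted p = 2.7e-06), and RRM2, at 10.2 and 9.82 CPM (-1.74, SE 0.12, adjusted p = 5.2e-07). GINS4 was at 3.40 and 4.31 CPM (-1.87, SE 0.14, adjusted p = 1e-06). Each was far below the knockout in both samples. PCNA stood at 33.2 and 27.6 CPM, below the 58.4 and 52.9 CPM of the knockout (-0.87, SE 0.11, adjusted p = 4.9e-05). MCM10, at 3.34 and 3.42 CPM, was called lower in the wild type knock-in and missed the threshold in the mutant (-0.53, SE 0.21, adjusted p = 0.056).

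Between the 2 knock-ins few replication genes differed. Of the 48, 4 were higher and 4 lower in the mutant than in the wild type knock-in, where 5.16% of all tested genes were higher and 7.39% lower. The median difference was 0.08. CDC6 had 9.84 and 10.3 CPM in the mutant and 6.10 and 6.25 CPM in the wild type knock-in, a difference of 0.70 (SE 0.12, adjusted p = 0.0050). MCM10 was 0.82 higher (SE 0.24, adjusted p = 0.047), MCM7 0.46 higher (SE 0.12, adjusted p = 0.026) and FEN1 0.37 higher (SE 0.11, adjusted p = 0.040). None of these 4 overlapped between the knock-ins.

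The 4 genes that were lower in the mutant knock-in were PCNA, both measured RPA genes and RRM1. RPA2 had 14.1 and 14.1 CPM in the mutant and 19.2 and 19.6 CPM in the wild type knock-in, a difference of -0.46 (SE 0.10, adjusted p = 0.016). RPA3 had 3.28 and 2.79 CPM against 4.39 and 5.18 CPM (-0.66, SE 0.20, adjusted p = 0.046). PCNA differed by -0.53 (SE 0.11, adjusted p = 0.011) and RRM1, at 45.6 and 47.2 against 54.7 and 60.5 CPM, by -0.31 (SE 0.09, adjusted p = 0.043). None of the 8 calls was kept under all 11 alternatives. The higher genes numbered 1 without wild type sample 1, 0 without wild type sample 2 and 0 without mutant sample 2, and the lower genes numbered 2, 0, 1 and 0 without wild type sample 1, wild type sample 2, mutant sample 1 and mutant sample 2. METTL3 itself was 1.17 higher in the mutant than in the wild type knock-in (SE 0.14), and HRAS 0.78 lower in log2 terms, from a mean of 46.1 to 26.7 CPM, and the part of either was not tested.

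Against senescent control, some genes were called higher and others lower in each knock-in. In the wild type knock-in, 5 of the 48 genes were higher and 6 lower, where 20.8% of all tested genes were higher and 19.1% lower, and the median difference was -0.09. Both shares lie below those of all genes. In the mutant knock-in, 11 were higher and 13 lower, where 27% of all tested genes were higher and 26.3% lower, and the median was -0.10. These shares are near those of all genes. The groups did not overlap in 30 of the 48 genes for the wild type knock-in, below the 74.1% of all tested genes, and in 37 for the mutant knock-in, near the 80.8% of all tested genes. In either direction, these calls are thus no result about replication genes as a group, and the genes below are described singly.

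**Figure D5:**
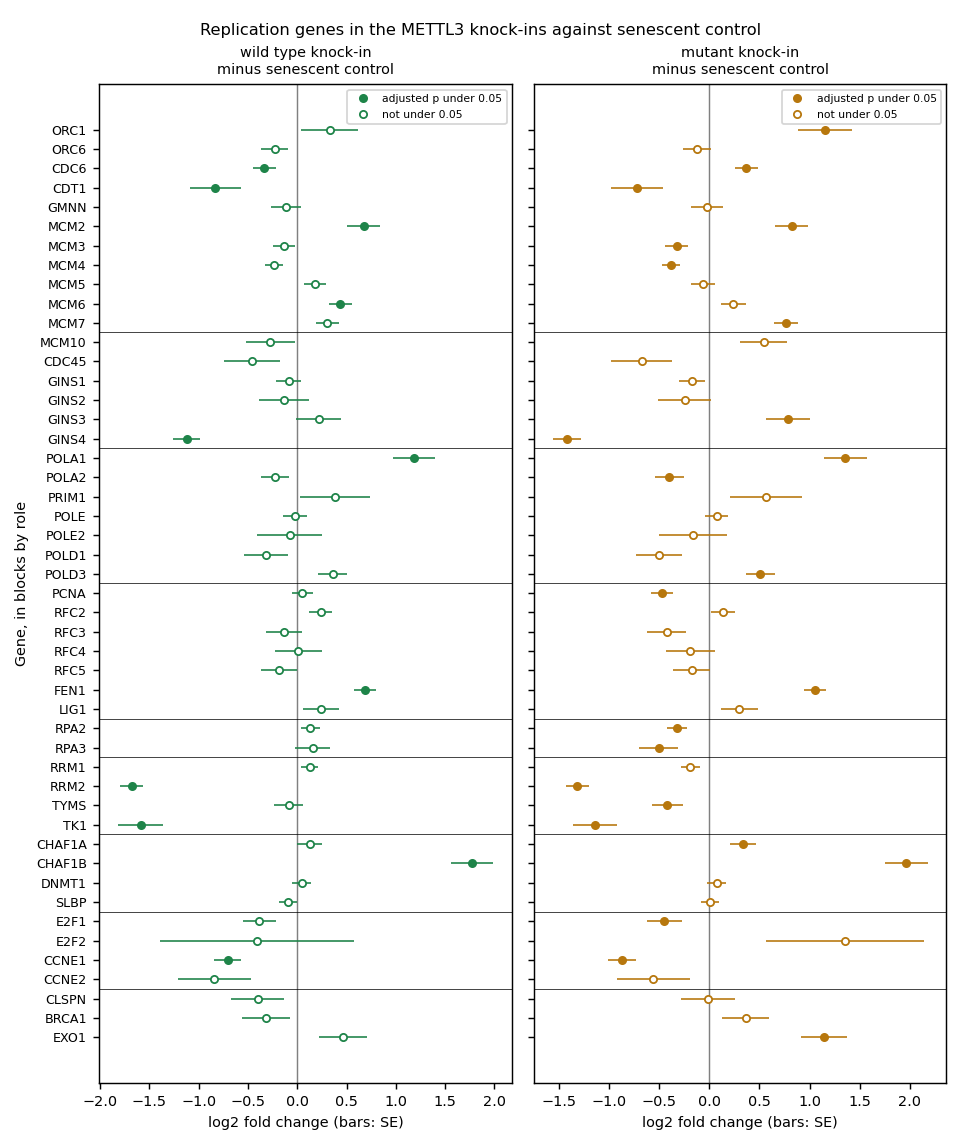
Log2 fold change of each gene with its SE, for the wild type knock-in (left) and the mutant knock-in (right), each minus senescent control, with filled points at an adjusted p under 0.05. CHAF1B and POLA1 lie farthest to the right in the left panel (1.78 and 1.18), and RRM2, TK1 and GINS4 farthest to the left in both; the panels share the senescent control samples.

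Genes lower than senescent control in both knock-ins were CDT1, GINS4, RRM2, TK1 and CCNE1. For TK1, senescent control had 3.29 and 2.97 CPM, the wild type knock-in 1.16 and 0.933 CPM and the mutant 1.55 and 1.27 CPM. These are differences of -1.59 (SE 0.23, adjusted p = 0.00019) and -1.14 (SE 0.22, adjusted p = 0.00097), and the group means were 3.09% and 4.16% of control. RRM2 differed by -1.68 (SE 0.12, adjusted p = 1.3e-06) and -1.32 (SE 0.12, adjusted p = 2.9e-06). GINS4 differed by -1.12 (SE 0.13, adjusted p = 5.3e-05) and -1.42 (SE 0.14, adjusted p = 6.5e-06). CCNE1, whose change in senescence was not called, was at 5.19 and 6.11 CPM in the wild type knock-in. In the mutant it was at 5.19 and 4.94 CPM, and both groups lay below the 9.16 and 9.36 CPM of senescent control. Its differences were -0.71 (SE 0.14, adjusted p = 0.0015) and -0.87 (SE 0.14, adjusted p = 0.00026). The calls of TK1, RRM2, GINS4 and CCNE1 were kept under each of the 11 alternatives in both comparisons. The CDT1 calls were lost without senescent control sample 1 or either sample of the knock-in, with adjusted p up to 0.19 in the wild type and 0.27 in the mutant.

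MCM2, POLA1, FEN1 and CHAF1B were higher than senescent control in both knock-ins. CHAF1B differed most, with 2.25 and 2.65 CPM in senescent control and the knock-in values given above, by 1.78 (SE 0.21, adjusted p = 5.1e-05) and 1.97 (SE 0.21, adjusted p = 1.1e-05). POLA1 stood at 5.04 and 4.25 CPM in senescent control and at 11.04 and 10.03 CPM in the wild type knock-in, a difference of 1.18 (SE 0.21, adjusted p = 0.0011). In the mutant it differed by 1.36 (SE 0.21, adjusted p = 0.00024). All 4 knock-in samples lay above senescent control for both genes. FEN1 rose from 12.8 and 13.1 CPM, by 0.69 (SE 0.11, adjusted p = 0.00042) and 1.06 (SE 0.11, adjusted p = 8.6e-06). MCM2, a helicase subunit, had 6.03 and 5.25 CPM in senescent control, 9.52 and 8.49 CPM in the wild type and 8.65 and 11.3 CPM in the mutant knock-in. Its differences were 0.67 (SE 0.16, adjusted p = 0.0062) and 0.82 (SE 0.16, adjusted p = 0.0012), and the first call was lost without senescent control sample 2 (adjusted p = 0.073).

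CDC6 was called in opposite directions, at -0.33 (SE 0.12, adjusted p = 0.042) in the wild type and 0.37 (SE 0.11, adjusted p = 0.017) in the mutant knock-in. Its senescent control samples, at 7.62 and 7.94 CPM, lay between the knock-ins. These 2 calls were lost in 9 and 6 of 11 alternatives, without any 1 of the 4 samples among them, with adjusted p up to 0.16 and 0.13. MCM6 was called higher in the wild type knock-in, at 11.4 and 10.8 CPM (0.44, SE 0.12, adjusted p = 0.010), and had 10.3 and 9.06 CPM in the mutant. The MCM6 call was lost without either senescent control sample or wild type sample 1 (adjusted p up to 0.096). The direct difference of MCM6 between the knock-ins was -0.20 (SE 0.12, adjusted p = 0.29), so no difference between them was shown.

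In the mutant knock-in, 6 further genes were higher than senescent control: ORC1, MCM7, GINS3, POLD3, CHAF1A and EXO1. MCM7 had 14.0 and 15.4 CPM in senescent control and 23.0 and 27.2 CPM in the mutant, a difference of 0.77 (SE 0.12, adjusted p = 0.00018). EXO1, at 5.84 and 6.90 CPM, differed by 1.15 (SE 0.23, adjusted p = 0.0013). Both calls held under each of the 11 alternatives, without overlap of the groups. ORC1 had 2.39 and 3.99 CPM (1.16, SE 0.27, adjusted p = 0.0033, and 0.071 without mutant sample 2). GINS3 differed by 0.78 (SE 0.22, adjusted p = 0.0092), POLD3, a polymerase delta subunit, by 0.51 (SE 0.15, adjusted p = 0.011) and CHAF1A, the large CAF-1 subunit, by 0.33 (SE 0.13, adjusted p = 0.043). The GINS3 call was lost without senescent control sample 1 or mutant sample 2 (adjusted p up to 0.094), that of POLD3 without either senescent control sample or mutant sample 2 (up to 0.10), and that of CHAF1A without any 1 of the 4 samples (up to 0.30).

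Another 8 genes were lower than senescent control in the mutant and not called in the wild type knock-in: MCM3, MCM4, POLA2, PCNA, RPA2, RPA3, TYMS and E2F1. PCNA had 42.9 and 41.6 CPM in senescent control and 33.2 and 27.6 CPM in the mutant (-0.48, SE 0.11, adjusted p = 0.0029). RPA2 was at 17.8 and 17.6 CPM and at 14.1 and 14.1 CPM (-0.32, SE 0.10, adjusted p = 0.018). The mutant samples of both genes were lowest among all 10 samples. Of the 8 calls, those of MCM4 and PCNA were kept under each of the 11 alternatives. The members called higher numbered 7 without senescent control sample 1 and 6 without mutant sample 2, and those called lower 8 and 7 without senescent control samples 1 and 2. HRAS was also lower in the mutant knock-in than in senescent control (-1.19, SE 0.11, adjusted p = 3.8e-06), and its part was not tested. The HRAS mean of the wild type knock-in also lay below that of senescent control, and its part there was not tested.

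The order of the 5 group means was control, knockout, senescent control, wild type, mutant for 12 genes, and the same with the knock-ins exchanged for 8. In all 48 genes control was highest. For 7 genes, MCM2, MCM7, GINS3, POLA1, FEN1, CHAF1A and CHAF1B, the order was control, mutant, wild type, knockout, senescent control. BRCA1 differed from both patterns in size: its 8 senescent samples ran from 8.44 to 15.6 CPM, it passed the test in none of the 8 comparisons, and its mean in the mutant knock-in was 88.7% of control.

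Beyond the 48 genes, a wider list of 74 replication and S phase genes moved in the same directions with smaller medians. In senescent control 55 of the 74 fell and 6 rose, with a median of -0.83, beside 25.3% and 19.7% of all tested genes. In the knockout 23 rose and 2 fell against senescent control, with a median of 0.29, beside 7.17% and 8.62% of all genes. Against the knockout, 34 were lower and 4 higher in the wild type knock-in, with a median of -0.35, beside 14.8% and 18.5% of all genes. In the mutant 37 were lower and 5 higher, with a median of -0.32, beside 24.3% and 24.1% of all genes.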

How the data were processed

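Per the labels' protocols, libraries of 10 samples were made with the KAPA RNA HyperPrep kit from RNeasy-extracted, DNase-treated RNA. The submitters' processing notes name Bowtie2, RSEM 1.2.12 and hg19. What the authors deposited is 1 table of raw counts, whole numbers per Ensembl gene, without normalization. Neither the strand setting nor the treatment of reads shared by genes is given in the sources used here, and 20 of the 48 matched genes share exon bases with another gene of the table in GENCODE 29 (GRCh38), so their counts are uncertain to that extent.

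Counts were tested with edgeR 4.0.16 in R 4.3.3: filterByExpr (minimum count 10), TMM scaling, 1 coefficient per group over all 10 samples, the robust two-sided quasi-likelihood F test with 5 residual degrees of freedom, and Benjamini-Hochberg adjustment over 16760 genes. A gene rose or fell at an adjusted p under 0.05. Log2 changes carry a standard error computed from the change and its F statistic, and CPM use TMM-scaled totals. The procedure was tested on simulated counts. Alternatives were DESeq2 1.42.0, upper-quartile scaling, removal of the METTL3 row, no filter, a minimum count of 30, a fit of the 2 compared groups, a replicate block and leaving out each of 4 samples. Per-sample values are given, within each of 9 role groups, for the genes with the largest and smallest change in senescence and the largest change in the knockout, and for called genes that moved against the median. GINS4, RRM2, TYMS and CDT1 were added after their values were seen. The genes, lists and tests were chosen with earlier results of these data known. Counting limits cover counting error only.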

Additional observations from a re-analysis of the deposited data

Results flagged for a closer look

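The level of 8 replication genes differed between the mutant and wild type knock-ins by the direct test (edgeR quasi-likelihood, adjusted p under 0.05, n = 2 samples a group). METTL3 and HRAS levels also differed between these groups, and the part of either was not tested. On the log2 scale, mutant minus wild type was 0.82 for MCM10, 0.70 for CDC6, 0.46 for MCM7 and 0.37 for FEN1. It was -0.66 for RPA3, -0.53 for PCNA, -0.46 for RPA2 and -0.31 for RRM1. These 4 higher and 4 lower calls among 48 genes stand near the shares of all tested genes, 5.16% higher and 7.39% lower, so they are no result about replication genes as a group. None of these calls was kept under every alternative. Groups of 2 are too small for a check of single outlying samples.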

How the results depend on the processing

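No member reversed direction with a call on either side in any of the 11 alternatives of the 8 comparisons, and the 45 falls of senescent control and of the knockout against control were all kept. The fall of SLBP in the knockout against senescent control was lost, leaving 0 members lower, with upper-quartile scaling, no filter, the replicate block and DESeq2. For the wild type knock-in against the knockout, 2 members were higher with no filter and 3 when only the 2 groups were fitted, in place of 1. Between the knock-ins, 2 members were higher with DESeq2, and 2 were lower with upper-quartile scaling, without the METTL3 row, with a minimum count of 30 and with DESeq2, in place of 4. For the mutant knock-in against senescent control, 6 members were lower with upper-quartile scaling and with DESeq2, in place of 13. Over all genes, fits of only 2 groups called 2716 lower in senescence (4240 in the full fit), 2526 higher and 3095 lower in the knockout against senescent control (1202 and 1444), 2582 lower in the knockout against control (4472), and 1884 higher and 2194 lower between the knock-ins (865 and 1238), where upper-quartile scaling gave 773 lower and no filter 1887. The cause of these shifts was not tested.

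Leaving out 1 sample at a time gave these lowest and highest counts of members. In the knockout against senescent control, 6 to 11 were higher and 0 lower. Against the knockout, 17 to 22 were lower in the wild type and 2 to 5 higher in the mutant knock-in. Between the knock-ins, 0 to 3 were higher and 0 to 2 lower. Against senescent control, 3 to 5 were higher in the wild type knock-in, and in the mutant 6 to 9 were higher and 7 to 9 lower. Over all genes, 2700 to 4507 fell in senescence, 501 to 613 rose and 689 to 755 fell in the knockout against senescent control, and 2782 to 4734 were lower in the knockout against control. Against the knockout, 1768 to 2113 were higher and 1515 to 2037 lower in the wild type and 2634 to 3344 higher in the mutant knock-in. Between the knock-ins, 92 to 450 were higher and 31 to 728 lower, and the wild type knock-in against senescent control had 2189 to 2633 higher and 2038 to 2734 lower. A lone sample left in a group was assumed to vary like the other groups. A call lost in such a fit does not show that a given sample carried it.

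The replicate numbers were shared by all groups, but the labels do not say that a number marks a shared culture. The correlation of replicate differences between groups ran from -0.099 to 0.042, so the numbers were not taken as pairs, and no pair of groups exceeded 0.1. With the replicate block, 45 members fell in senescence and 22 rose in the knockout against senescent control. Depth limits E2F2 most, with 0 to 11 counts in each senescent sample.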

Other observations

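Among the 74 further replication and S phase genes, E2F7, a repressor of the E2F family, moved opposite to most of the list. Its mean was 81.5 CPM in control, 252 in senescent control, 171 in the knockout, 425 in the wild type and 440 in the mutant knock-in. It rose in senescence by 1.63 (edgeR adjusted p = 1.9e-08), fell in the knockout against senescent control by -0.56 (adjusted p = 0.00049) and was 1.31 and 1.37 higher than the knockout in the wild type and mutant knock-ins (adjusted p = 5.6e-07 and 2.1e-07). RRM2B, a p53-induced subunit of ribonucleotide reductase, rose in senescence by 1.46 (adjusted p = 1.3e-05), from a mean of 65.7 to 180 CPM, while its relative RRM2 fell. Its change in the knockout against senescent control was 0.04 (adjusted p = 0.91).

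MYBL2 and TOP2A, also of the further list, were low in senescence. MYBL2, a subunit of the complex that drives late cell cycle genes, had a mean of 16 CPM in control, 1.56 in senescent control and 5.38 in the knockout, and it rose in the knockout by 1.77 (adjusted p = 0.00022). It was 1.06 CPM in the wild type and 1.27 CPM in the mutant knock-in. TOP2A, the topoisomerase that untangles copied DNA, had means of 216, 34.1, 78.1, 15.7 and 20.8 CPM in the same order of groups. It was lower than senescent control in both knock-ins, by -1.12 (adjusted p = 0.00061) and -0.72 (adjusted p = 0.0057). These genes were chosen after their values were seen.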
